A study of Homo sapiens with 6 samples.

Results

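The genes described here are 42 members of the type I interferon response, named by 43 symbols because DDX58 and RIGI are the same gene. They were taken by name from a list, which was chosen with earlier results of these data known. On file they had 684 of the 252618 transcripts listed, of which 249787 matched to 61015 genes, and the counts of each gene's transcripts were summed. Both groups came from paclitaxel (PTX)-resistant MDA-MB-231 cells, a human triple-negative breast cancer line, so that every library carries the resistance and no sensitive parent is compared. The 3 BCSC libraries (breast cancer stem cells) came from cells gated as ALDH+ by an ALDEFLUOR flow sort, and the 3 non-BCSC libraries from ALDH- cells of the same resistant line. No source used here says whether the replicates came from separate cultures, so the p-values below measure only the spread between these libraries. Only 1 resistant line was measured.

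Type I interferons are secreted proteins that bind a receptor on the cell surface and signal through the kinases JAK1 and TYK2 to STAT proteins. STAT2 joins IRF9, and the complex binds the interferon-stimulated response element, or ISRE, in the promoters of many antiviral genes. RIG-I-like sensors in the cytoplasm start interferon production when they meet foreign or misplaced double-stranded RNA, and their own genes are induced by interferon. In cancer cells, lasting low activity of such genes is known in many lines, with or without an added interferon.

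The promoters of several members are shown because they carry the element through which the response is defined. RefSeq promoters (GRCh38.p14, 250 bases before to 50 after each start site) matched 34 of the 42 genes. No promoter was matched for IFIT2, IFITM2, IRF7, MX2, OAS2, OASL, TRIM22 or USP18. Each stretch below is 80 bases, reads 5′ to 3′ on the gene's strand and lies wholly before the start site. Capitals mark the ISRE core, searched on both strands as GAAA, any 2 bases and GAAA, and in IRF1 the STAT-binding GAS element, searched as TTC, any 3 bases and GAA, which reads alike on both strands. The motifs were counted independently and may overlap.
ISG15 (chr1:1013355-1013434, plus strand): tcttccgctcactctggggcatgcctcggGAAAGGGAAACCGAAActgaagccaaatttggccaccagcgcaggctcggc
IFI6 (chr1:27672241-27672320, minus strand): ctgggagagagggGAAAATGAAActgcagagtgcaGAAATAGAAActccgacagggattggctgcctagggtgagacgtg
IFIT3 (chr10:89332443-89332522, plus strand): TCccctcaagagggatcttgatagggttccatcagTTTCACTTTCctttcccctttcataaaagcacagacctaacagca
IFIT1 (chr10:89392485-89392564, plus strand): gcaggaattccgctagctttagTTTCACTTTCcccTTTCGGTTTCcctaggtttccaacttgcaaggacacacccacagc
RSAD2 (chr2:6877597-6877676, plus strand): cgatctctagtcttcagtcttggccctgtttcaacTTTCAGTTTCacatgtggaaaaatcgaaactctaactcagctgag
IRF1 (chr5:132490854-132490933, minus strand): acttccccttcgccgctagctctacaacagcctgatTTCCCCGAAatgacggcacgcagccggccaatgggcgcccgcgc
DDX60 (chr4:168318761-168318840, minus strand): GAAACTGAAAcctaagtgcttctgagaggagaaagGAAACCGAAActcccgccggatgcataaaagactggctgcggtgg
IFI44L (chr1:78620340-78620419, plus strand): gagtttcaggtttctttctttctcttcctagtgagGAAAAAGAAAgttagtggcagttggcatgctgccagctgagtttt
In ISG15 a pair of overlapping cores begins 113 and 107 bases before the start site, and in IFIT3 the leading capitals are the end of a core that begins outside the stretch. The first 6 of these genes were called higher in BCSC below, and DDX60 and IFI44L were not.

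An ISRE core lay in a promoter of 23 of the 34 genes (67.6%), against 4.38% of the 27305 symbols in the RefSeq table. A GAS element was found in 11 of the 34, against 2560 of the 27305 symbols. Among members called higher below, 7 of 13 with a promoter had an ISRE core (53.8%), and among those not called 16 of 21 had it (76.2%). A GAS element was in 3 of those 13 and in 8 of those 21. RIGI, which was higher, had neither motif as searched. Its window holds GAAACGAAA, where the spacing differs from that of the searched core. The windows of OAS1 and XAF1, which were not called, hold it too. Sites with another spacing were not counted in any gene, so the shares above hold only for the core as searched.

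The libraries held 9898588 to 21215352 counts, and the mean BCSC total was 1.61 times the non-BCSC mean. A count of 0 allows up to 3 counts, or 0.148 to 0.288 CPM (counts scaled to the TMM library size), for counting error only. Markers of the MDA-MB-231 line (VIM, CD44, EGFR, SPARC and CAV1) were present in every library, at a summed 4677 to 8147 CPM, and the markers expected to be absent summed to 8.32 to 47.9 CPM. The labels give all 6 libraries the same cell type, and the group stands only in the title. Of the genes for the enzymes that the sort reads, ALDH1A3 had 519, 467 and 553 counts in BCSC against 285, 192 and 126 in non-BCSC (log2 fold change 0.77, edgeR adjusted p = 0.0577), and ALDH1A1 had 0, 5 and 6 against 38, 28 and 32. These ALDH genes were looked up after the data were seen.

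The groups also differed in low-level signal. Olfactory receptor genes, a family of 407 genes with little known use outside the nose, summed to 41.2, 57.5 and 153 CPM in BCSC and to 544, 701 and 1166 CPM in non-BCSC. Fold changes also rose with the GC content of the transcripts over all genes, with a Spearman rho of 0.542 over 20442 genes, which are not independent replicates. Both facts move with the groups. Each result below comes from the main fit. A correction for GC content and length, and removal of a background estimated from the olfactory receptors, were run beside it, and their values are given where they change the call of a named gene. What these differences contribute to the results was not tested beyond those values.

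As a group the interferon genes were higher in BCSC. Their summed level was 2409, 2543 and 2387 CPM in the BCSC libraries and 1542, 1514 and 1371 CPM in the non-BCSC libraries, and the groups did not overlap. In a bulk library, more cells that use a gene and more RNA per cell cannot be told apart. 41 of the 42 members passed the filter on low counts. 16 were called higher (edgeR's quasi-likelihood test, Benjamini-Hochberg adjusted p under 0.05 over all genes and a fold above 2), beside 8.85% of all genes tested, and 0 were called lower, beside 11.3%. On unadjusted p-values with the same fold, 1 member was lower, namely MX1. DESeq2, the other tool run, called 18 members higher, beside 6.48% of all genes, and 0 lower, beside 16.4%; its additions were IFI27 and STAT2. The median log2 fold change of the members was 0.76, against -0.05 over all genes tested, and 35 of the 41 were above 0. Without a minimum fold, 23 passed as higher, beside 15.3% of all genes, and 0 as lower, beside 14.6%. In 27 members all BCSC libraries lay above all non-BCSC libraries, beside 24.2% of all genes, and in 1 member, MX1, all lay below, beside 27.9%.

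**Figure D1:**
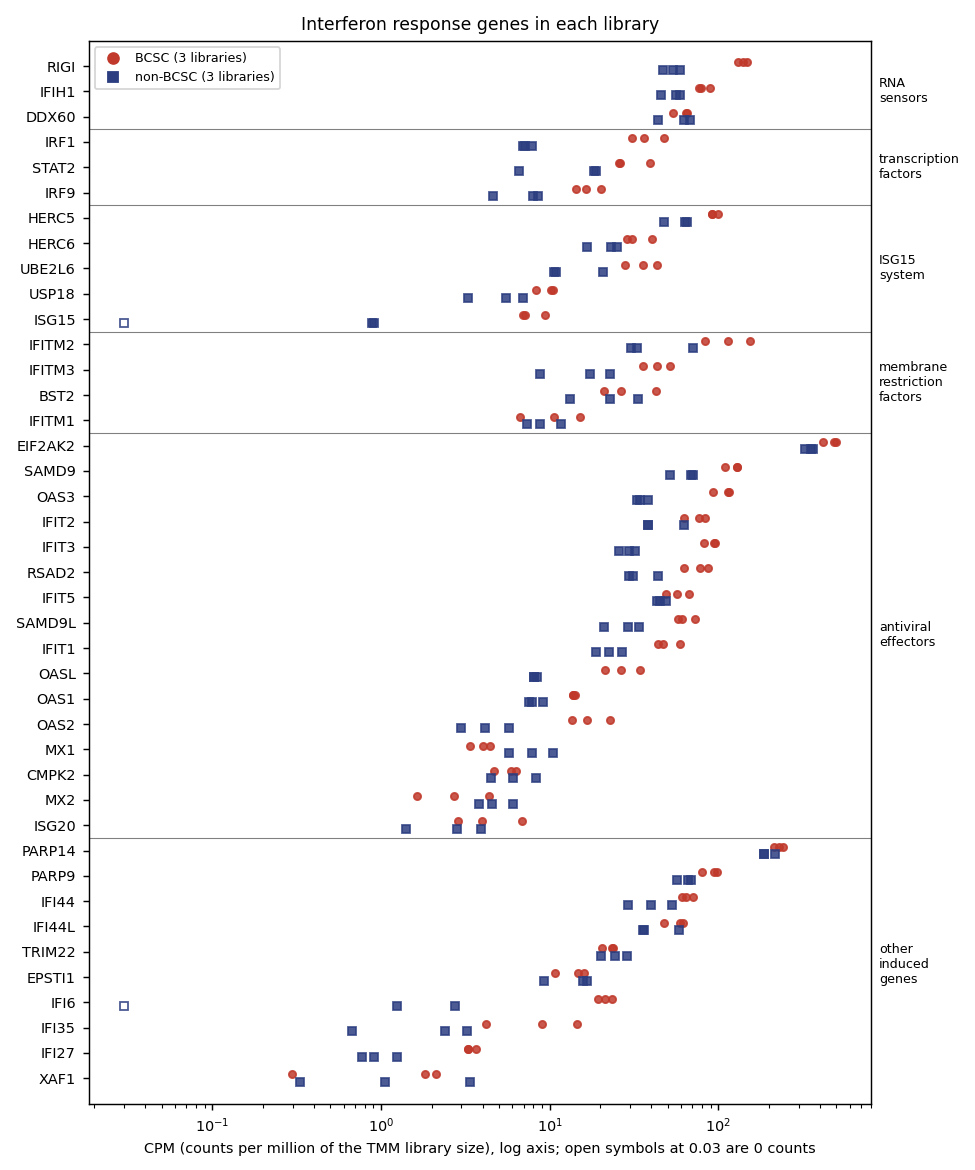
Level of each interferon response gene with a count (rows, grouped by role) in CPM on a log axis; red circles are the 3 BCSC libraries, blue squares the 3 non-BCSC libraries, and open symbols at the left are libraries with 0 counts. In 27 genes every red circle lies to the right of every blue square, and in MX1 every red circle lies to the left.

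The RNA sensors were each detected at substantial levels, and 1 of the 3 was called higher, beside 8.85% of all genes. RIGI, the sensor of short double-stranded RNA with a 5′ triphosphate, stood at 131, 140 and 149 CPM in BCSC and at 54.1, 59.5 and 47.0 CPM in non-BCSC. The groups were far apart relative to their spread, and the log2 fold change was 1.39 (SE 0.13, n = 3 per group, adjusted p = 0.0002 in edgeR). A readthrough gene shares 96.6% of the 50-base words of RIGI's main transcript, so that reads could be split between them, but its own estimates summed to 82 counts in BCSC and 18 in non-BCSC. IFIH1, which encodes the long double-stranded RNA sensor MDA5, stood at 78.5, 89.3 and 76.6 CPM against 56.1, 58.9 and 45.9 CPM. It passed the adjusted p below the fold threshold (log2 fold change 0.60, SE 0.15, edgeR adjusted p = 0.0152). In the GC-corrected and length-corrected fit IFIH1 was called higher at 1.57. DDX60, a helicase that assists these sensors, overlapped between the groups, at 53.6, 64.2 and 65.2 CPM against 44.1, 62.9 and 67.8 CPM. Its log2 fold change of 0.07 changed sign under several alternatives, and after the GC and length correction it was called higher at 1.27.

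Among the transcription factors that carry the signal, 2 of 3 tested were called higher, beside 8.85% of all genes. IRF1, which binds interferon-response promoters and is itself induced by interferon, stood at 47.4, 36.5 and 30.9 CPM in BCSC and at 7.84, 7.16 and 6.90 CPM in non-BCSC. All BCSC values were several times the non-BCSC values (log2 difference 2.39, SE 0.24, adjusted p = 0.0004 in edgeR), and the difference was 1.68 after the GC and length correction. IRF9, the DNA-binding partner of STAT2, stood at 14.4, 16.5 and 20.1 CPM against 8.50, 7.95 and 4.6 CPM. The groups did not overlap (log2 fold change 1.27, SE 0.33, edgeR adjusted p = 0.0189), but the call was lost after the GC and length correction (0.76, adjusted p = 0.095), after background removal (1.53, adjusted p = 0.0525), and without BCSC replicate 2 or BCSC replicate 3. IRF9 also shares 40.2% of its 50-base words with a readthrough gene that had 215, 14 and 16 counts in BCSC and 0 in every non-BCSC library.

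STAT2 stood at 39.5, 26.0 and 25.6 CPM in BCSC and at 18.8, 18.2 and 6.62 CPM in non-BCSC. Its log2 fold change of 1.06 (SE 0.38) missed the threshold in edgeR (adjusted p = 0.0593) and was called by DESeq2. IRF7, the factor that amplifies interferon production, was listed at 0 counts in all 6 libraries over all 17 of its transcripts. That 0 allows up to 0.288 CPM in the shallowest library for counting error only, and 7.4% of the protein-coding genes on file were likewise at 0 in every library. PHRF1, a neighbour of IRF7 on the chromosome, had 88 to 1081 counts. Whether counts of IRF7 were lost in the counting was not tested.

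ISG15 is a ubiquitin-like protein that is joined to other proteins after interferon, and its system of enzymes includes the E2 UBE2L6, the E3 HERC5, its relative HERC6 and the protease USP18. ISG15 received 190, 109 and 115 counts in BCSC (9.36, 7.11 and 6.96 CPM) and 11, 10 and 0 counts in non-BCSC (0.908, 0.883 and 0 CPM). The groups were far apart, and the log2 fold change was 3.67 (SE 0.89, adjusted p = 0.0147 in edgeR). The non-BCSC level was 0.855 times the olfactory receptor background per kilobase, and the call was lost without BCSC replicate 1 (adjusted p = 0.0569 in edgeR). ISG15 was not tested under the filter of 10 counts in every library. UBE2L6 stood at 43.2, 35.6 and 27.9 CPM against 20.7, 10.6 and 10.9 CPM, and the log2 fold change was 1.34 (SE 0.31, adjusted p = 0.0121 in edgeR). After the GC and length correction it was 0.79 and under the fold threshold.

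HERC5 passed only the adjusted p, at 91.5, 91.9 and 99.2 CPM against 63.9, 65.3 and 47.8 CPM (log2 fold change 0.68, edgeR adjusted p = 0.0106). USP18, which also removes ISG15 and restrains the receptor, and HERC6 had log2 fold changes of 0.88 and 0.62 and did not pass. HERC5 and USP18 were called higher after the GC and length correction, at 1.70 and 1.22. In all 5 genes of the system the groups did not overlap, with BCSC above, beside 24.2% of all genes.

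The antiviral effectors were the largest role, and 7 of 16 were called higher, beside 8.85% of all genes. The IFIT proteins bind foreign RNA ends. IFIT3 stood at 93.8, 95.6 and 82.6 CPM in BCSC and at 32.1, 25.6 and 29.5 CPM in non-BCSC, which differed by 1.64 on the log2 scale (SE 0.15, adjusted p = 0.0002 in edgeR). IFIT1 stood at 43.8, 58.9 and 47.0 CPM against 27.0, 22.4 and 18.9 CPM (1.13, SE 0.20, adjusted p = 0.0047 in edgeR). Both genes were separated between the groups. IFIT2, at 76.5, 83.6 and 62.6 CPM against 38.2, 62.6 and 38.3 CPM, overlapped narrowly between the groups and passed only the adjusted p (0.68, edgeR adjusted p = 0.0404). IFIT5 was at 0.33 on the log2 scale (edgeR adjusted p = 0.142). IFIT2 and IFIT5 were both called higher after the GC and length correction, at 1.59 and 1.55.

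The OAS enzymes make short oligoadenylates on binding double-stranded RNA, which activate RNase L. OAS3 stood at 114, 116 and 93.5 CPM in BCSC and at 34.4, 38.4 and 32.9 CPM in non-BCSC (log2 fold change 1.61, SE 0.15, edgeR adjusted p = 0.0002). OAS2 stood at 13.6, 22.8 and 16.8 CPM against 2.97, 5.74 and 4.12 CPM (2.05, SE 0.37, edgeR adjusted p = 0.0045), and its non-BCSC level was 1.25 times the background per kilobase. OASL, a relative without the enzyme activity, stood at 34.3, 26.4 and 21.2 CPM against 8.09, 8.13 and 8.44 CPM (1.73, SE 0.26, edgeR adjusted p = 0.0022). The 3 genes were separated between the groups, and OAS1 was as well, with a log2 fold change of 0.76 that did not pass (edgeR adjusted p = 0.0658) and a corrected value of 1.03 that did.

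RSAD2, which encodes the radical-SAM enzyme viperin, stood at 62.8, 87.3 and 78.3 CPM in BCSC and at 31.1, 29.4 and 43.9 CPM in non-BCSC (log2 fold change 1.13, SE 0.20, edgeR adjusted p = 0.0041). Background removal brought it to 0.99, just under the fold threshold. SAMD9L, a restriction factor that blocks translation, stood at 57.4, 72.4 and 61.0 CPM against 29.0, 33.9 and 20.9 CPM (1.19, SE 0.20, edgeR adjusted p = 0.0037). Its neighbour and relative SAMD9, at 109, 128 and 129 CPM against 68.8, 70.5 and 51.7 CPM, was at 0.94 on the log2 scale (edgeR adjusted p = 0.0026), just under the fold threshold, and was called higher at 2.38 after the GC and length correction. These genes were separated between the groups.

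EIF2AK2 encodes PKR, the kinase that stops translation on binding double-stranded RNA. It stood at 418, 495 and 482 CPM in BCSC and at 356, 366 and 327 CPM in non-BCSC (log2 fold change 0.41, SE 0.10, edgeR adjusted p = 0.0157). The groups did not overlap, and after the GC and length correction EIF2AK2 was called higher at 1.66.

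The MX genes, which encode antiviral GTPases, and CMPK2, a nucleotide kinase beside RSAD2, were not higher in BCSC. MX1 received 68, 62 and 73 counts in the BCSC libraries and 95, 65 and 109 in the others, or 3.35, 4.04 and 4.41 CPM against 7.84, 5.74 and 10.5 CPM. All BCSC values lay below the non-BCSC values, with a log2 fold change of -1.02 (SE 0.42) that did not pass in edgeR (adjusted p = 0.0931) and was called lower after the GC and length correction (-1.19, adjusted p = 0.0369). MX2 and CMPK2 had log2 fold changes of -0.72 and -0.16 with overlapping groups. The non-BCSC levels of MX1 and MX2 were 2.60 and 2.20 times the olfactory receptor background per kilobase, and background removal brought MX1 to -0.69.

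Of the 4 membrane restriction factors, 2 were called higher in the main fit, beside 8.85% of all genes. All 4 lie at 55% GC or above, where 29.8% of all genes were called higher. After the GC and length correction 0 of the 4 were called higher, beside 15.7% of all genes, and IFITM1 and BST2 changed sign. IFITM3, which blocks virus entry from endosomes, stood at 51.9, 43.3 and 35.6 CPM in BCSC and at 22.7, 17.3 and 8.73 CPM in non-BCSC (log2 fold change 1.42, SE 0.32, edgeR adjusted p = 0.0118). IFITM2 stood at 154, 113 and 83.1 CPM against 70.3, 30.2 and 32.9 CPM (1.39, SE 0.33, edgeR adjusted p = 0.0135). Both were separated between the groups, with wide spread inside each. After the GC and length correction their log2 fold changes were 0.06 and 0.17, and the IFITM2 call was also lost without non-BCSC replicate 2 or non-BCSC replicate 3. The IFITM genes share sequence with other genes, over 20.8% of the 50-base words of IFITM3, mostly with IFITM1, and over 55.1% of those of IFITM1, mostly with an annotated gene that had 0 counts in every library. IFITM1 and BST2, the tetherin gene, had log2 fold changes of 0.22 and 0.37 with overlapping groups.

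Among the other induced genes 2 of 10 were called higher, beside 8.85% of all genes. IFI6, a mitochondrial and endoplasmic reticulum protein that restrains cell death, had 477, 298 and 351 counts in BCSC (23.5, 19.4 and 21.2 CPM) and 15, 31 and 0 in non-BCSC (1.24, 2.74 and 0 CPM). This was the largest fold change of all members, 3.99 on the log2 scale (SE 0.80, edgeR adjusted p = 0.0070), and it stayed called in all 6 fits that left out a library. With 0 counts in a non-BCSC library, IFI6 was not tested under the filter of 10 counts in every library. LINC02574, which shares 21.9% of the 50-base words of IFI6, had 22 counts in BCSC and 34 in non-BCSC. IFI35, an adaptor-like protein, stood at 14.4, 9.07 and 4.17 CPM against 3.22, 2.39 and 0.671 CPM (2.13, SE 0.66, edgeR adjusted p = 0.0371). It was called in only 2 of the 6 fits, namely those without BCSC replicate 3 or non-BCSC replicate 1, and in neither the GC-corrected nor the background-removed fit.

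PARP14 and PARP9, ADP-ribosyltransferases of the macrodomain family, did not pass the fold threshold in the main fit and were called higher after the GC and length correction, at 1.04 and 1.30. PARP14 stood at 215, 230 and 242 CPM in BCSC and at 218, 188 and 186 CPM in non-BCSC, with overlapping groups (log2 fold change 0.22, edgeR adjusted p = 0.148). PARP9 stood at 93.9, 98.1 and 80.0 CPM against 68.8, 66.5 and 57.3 CPM and passed only the adjusted p (0.50, edgeR adjusted p = 0.0249). IFI44 likewise passed only the adjusted p, at 0.68, while the neighbouring IFI44L, at 0.37, did not. Both were called higher after the GC and length correction, at 1.93 and 1.73. IFI27, at 1.80 (edgeR adjusted p = 0.0804), was separated between the groups at 54 to 67 counts against 8 to 14. XAF1 had 4 to 35 counts per library and an SE of 1.10, and TRIM22 and EPSTI1 had overlapping groups at -0.11 and -0.01.

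**Figure D2:**
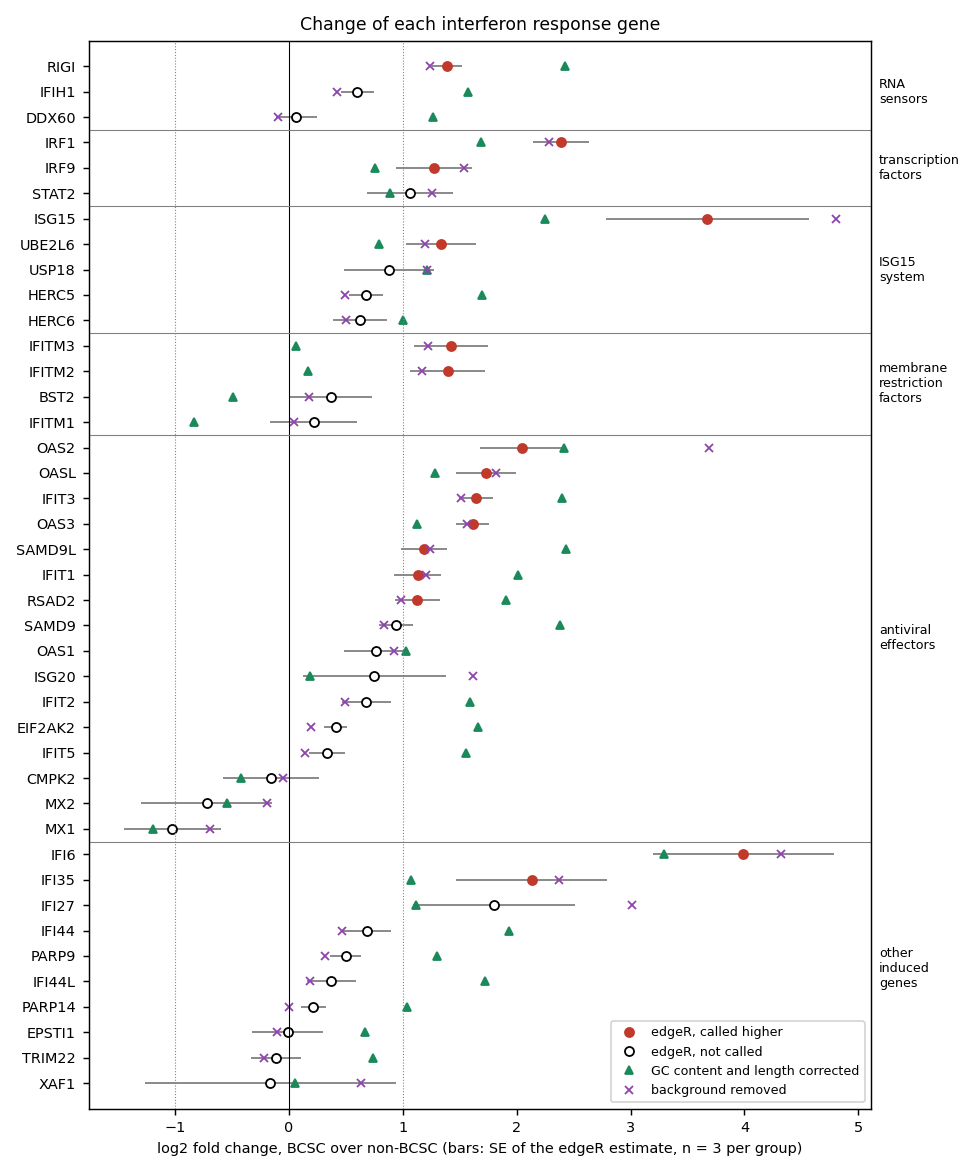
Log2 fold change of BCSC over non-BCSC for the 41 genes tested, grouped by role; filled circles are genes called higher, open circles genes not called, bars the SE of the edgeR estimate (n = 3 per group), green triangles the fit corrected for GC content and length and purple crosses the fit after background removal. Triangles lie to the right of the circles in SAMD9, SAMD9L and RIGI and to the left in the IFITM genes and BST2.

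The correction for GC content moved the members in both directions. The members' GC content ranged from 36.1% in SAMD9 to 63.8% in ISG15. Below 45% GC, 1.02% of all 9787 genes tested were called higher and 18.9% lower, with a median log2 fold change of -0.53. The 18 interferon genes in that range had a median of 0.64, and 5 of them were called higher (RIGI, IFIT1, IFIT3, RSAD2 and SAMD9L) and 0 lower. At 55% GC or above, where 29.8% of all genes were called higher and the median was 1.04, the 9 interferon genes had a median of 1.42 and 6 were called higher. Over the 41 members fold change and GC content had a Spearman rho of 0.396, given as a description of genes measured in the same 6 libraries. After the correction this rho was -0.491, against -0.075 over all genes.

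After the GC and length correction 24 members were called higher, beside 15.7% of all genes, and 1 lower, beside 9.1%. The members' median log2 fold change was then 1.22, against 0.21 over all genes, a shift of the whole distribution upward from -0.05. The genes gained were HERC5, USP18, DDX60, IFIH1, EIF2AK2, IFIT2, IFIT5, OAS1, SAMD9, IFI44, IFI44L, PARP14 and PARP9. The genes lost were UBE2L6, IFITM2, IFITM3, IFI35 and IRF9. With the background removed 13 members were called higher, beside 10.8% of all genes, and 0 lower, beside 6.57%, with medians of 0.92 in the members and 0.09 in all genes. In all 3 fits 10 members were called higher, namely ISG15, RIGI, IFIT1, IFIT3, OAS2, OAS3, OASL, SAMD9L, IFI6 and IRF1. The 3 fits use the same libraries, and the share of all genes called higher in all 3 was not computed. Of these members, ISG15 and IFI6 were not tested under the filter of 10 counts in every library.

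**Figure D3:**
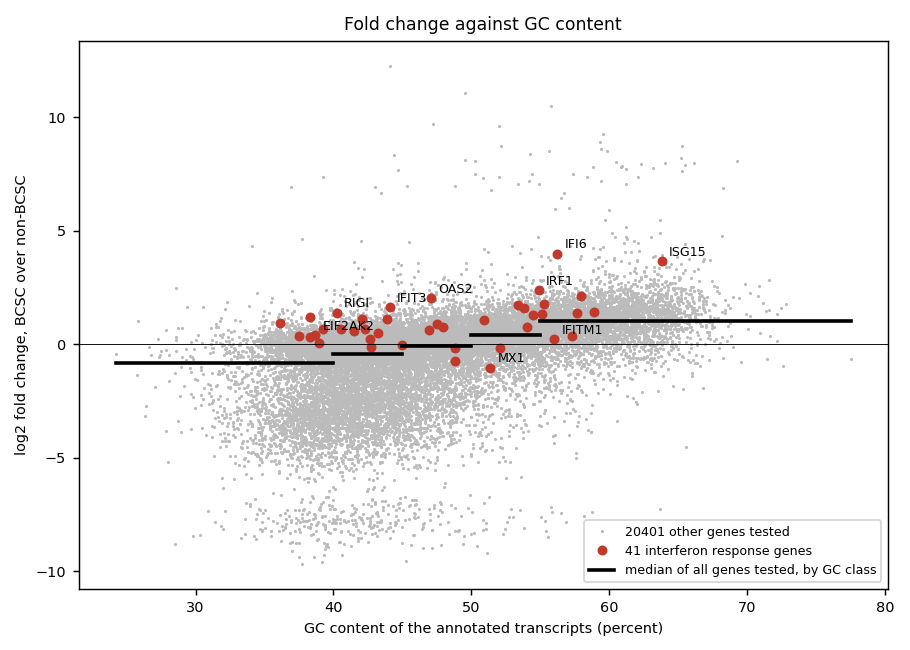
Log2 fold change of BCSC over non-BCSC (vertical) against the GC content of the transcripts in percent (horizontal); grey points are the other genes tested, red points the 41 interferon response genes and black bars the median of all genes in each of 5 GC classes. The black bars climb from -0.82 below 40% to 1.04 at 55% and above, and the red points lie mostly above them.

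Per kilobase, the members' median level was 196 times the olfactory receptor background in BCSC and 10.7 times in non-BCSC. Those multiples are taken against unequal backgrounds. Per kilobase these were 0.0517, 0.0721 and 0.192 CPM for the BCSC libraries, against 0.682, 0.878 and 1.46 CPM for the others. By comparison, the members' median log2 fold change was 0.76. The multiples and the counts of members below a limit thus carry the difference in background as well. In BCSC 0 of 41 members lay below 3 times the background, and in non-BCSC 9 did (ISG15, USP18, ISG20, MX1, MX2, OAS2, IFI27, IFI6 and XAF1). For ISG15, OAS2 and IFI6 the fold change was therefore measured against a level near the background. With the background removed their log2 fold changes were 4.8, 3.69 and 4.32. No share of all genes below 3 times the background is given here.

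Other genes were taken from 7 lists of 113 genes, of which 89 passed the filter. 6 lists hold genes of the pathway, and the other holds 4 neighbours of the interferon gene cluster on chromosome 9, which are not pathway genes and of which none was called by edgeR or DESeq2 (MTAP, at 0.62, passed only the adjusted p, 0.0074 in edgeR, and was called higher after the GC and length correction at 1.60, as were 2 of the 4 in all, with 1 lower). Of the 89 genes, 16 were called higher and 2 lower in the main fit, beside the same 8.85% and 11.3% of all genes. Their median log2 fold change was 0.52. DESeq2 called 13 higher and 10 lower among 102 of these genes, beside 6.48% and 16.4% of all genes, and the GC and length correction 33 higher and 2 lower of 89, beside 15.7% and 9.1%. The lists were chosen with earlier results of these data known.

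Interferon genes themselves were scarcely detected. Of the 20 ligand genes 2 passed the filter and 0 were called by edgeR, and the summed level of all 20 was 1.53 to 3.39 CPM in BCSC and 12.9 to 15.9 CPM in non-BCSC. IFNB1, the interferon that most cell types make, had 8, 8 and 21 counts against 42, 18 and 6, with overlapping groups (log2 fold change -1.36, edgeR adjusted p = 0.336). IFNE had 0, 0 and 6 counts against 26, 27 and 26 (-4.20, edgeR adjusted p = 0.0519). It was called lower by DESeq2 (-4.36, adjusted p = 0.0090), with RLE size factors (adjusted p = 0.0489 in edgeR) and without BCSC replicate 3. With the background removed 1 of the 2 ligand genes was still tested, and 0 were called. The olfactory receptor sums were likewise higher in non-BCSC, and what that signal adds to the ligand sums was not tested. IFNL1, a type III interferon chosen for mention with its values known, was counted 21, 4 and 12 times in BCSC and was at 0 in every non-BCSC library. It was at least 2.53-fold higher by the mean floor of 3 counts per library, and did not pass the filter.

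The receptor subunit IFNAR1 and the kinase JAK1 had log2 fold changes of 0.29 and 0.28 and did not pass, but after the GC and length correction IFNAR1 was called higher at 1.19. Of the 9 receptors and kinases tested 1 was called higher, beside 8.85% of all genes, namely TYK2, the other receptor kinase (1.42, edgeR adjusted p = 0.0172). The TYK2 call was lost without BCSC replicate 1, and after the GC and length correction TYK2 was at 0.14.

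Among 14 sensors and adaptors tested, 5 were called higher, beside 8.85% of all genes, and 1 lower, beside 11.3%. MAVS, the mitochondrial adaptor that receives the signal of RIG-I and MDA5, stood at 221, 188 and 173 CPM in BCSC and at 98.9, 82.6 and 76.0 CPM in non-BCSC (log2 fold change 1.18, SE 0.14, edgeR adjusted p = 0.0008). TRIM25, the ubiquitin ligase that acts on RIG-I, stood at 120, 110 and 103 CPM against 46.1, 44.1 and 37 CPM (1.38, SE 0.14, edgeR adjusted p = 0.0004). IFI16, a DNA sensor, was at 1.06 (edgeR adjusted p = 0.0015), and under the fold threshold without BCSC replicate 2 or with the background removed (0.84). These 3 genes were separated between the groups. IRF3 and IKBKE, the transcription factor that starts IFNB1 and a kinase that activates it, were called at 1.59 and 2.87, but IRF3 stayed called only without BCSC replicate 3 and IKBKE only when non-BCSC replicate 3 was left out. Neither was called after the GC and length correction, at 0.42 and 1.84, and IRF3 was also lost with the background removed (adjusted p = 0.0922 in edgeR). AIM2, the sensor of the inflammasome, was lower, with 5, 0 and 13 counts against 24, 98 and 81 (-4.12, edgeR adjusted p = 0.0226), and lost the call without BCSC replicate 1, non-BCSC replicate 2 or non-BCSC replicate 3.

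Of the 13 brakes on the pathway tested 1 was called higher, beside 8.85% of all genes. This was NLRC5, a regulator that also drives MHC class I genes (log2 fold change 2.03, edgeR adjusted p = 0.0184). Its call was lost without the same 3 libraries as that of AIM2. ADAR, the enzyme that edits double-stranded RNA, stood at 631, 609 and 465 CPM against 432, 334 and 325 CPM and passed only the adjusted p (0.64, edgeR adjusted p = 0.0124). PTPN11 did likewise at 0.32 and was called higher after the GC and length correction at 1.16. NLRC5 lost its call with the background removed (adjusted p = 0.116 in edgeR).

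In a further list of 40 genes, taken by name as interferon-induced, 9 were called higher, beside 8.85% of all genes, and 0 lower, beside 11.3%. Whether interferon induces each of them, ISG20L2 included, was not tested. With the background removed 5 of 39 tested were called higher, beside 10.8% of all genes. After the GC and length correction 18 of 40 were called higher, beside 15.7%. CXCL10, a chemokine for T cells, stood at 22.6, 17.9 and 19.4 CPM in BCSC and at 6.52, 5.21 and 5.56 CPM in non-BCSC (log2 fold change 1.79, SE 0.28, edgeR adjusted p = 0.0024). PML, the scaffold of nuclear bodies, was at 1.41, APOL2 at 1.42, GBP3, a guanylate-binding protein, at 1.13, DTX3L, the partner of PARP9, at 1.03 and ISG20L2 at 1.02. The GBP3 call was lost without non-BCSC replicate 1, that of APOL2 without BCSC replicate 2 and that of ISG20L2 without BCSC replicate 1. PML, APOL2 and ISG20L2 were no longer called after the GC and length correction, at 0.25, 0.95 and 0.99, and with the background removed DTX3L and ISG20L2 were under the fold threshold, at 0.85 and 0.84. ZC3HAV1, a zinc-finger antiviral protein, and APOL6 passed only the adjusted p, at 0.41 and 0.75, and APOL6 was called higher after the GC and length correction at 1.88.

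Of 7 interferon-linked long noncoding RNAs tested 0 were called higher, beside 8.85% of all genes, and 1 lower, beside 11.3%. The lower RNA was NEAT1, the scaffold RNA of paraspeckles. It stood at 623, 612 and 783 CPM in BCSC and at 1443, 1454 and 1208 CPM in non-BCSC (log2 fold change -1.02, SE 0.12, edgeR adjusted p = 0.0008). That fold is close to the threshold, the call was kept in 2 of the 6 fits that left out a library (those lacking BCSC replicate 3 or non-BCSC replicate 3), and it was -0.47 after the GC and length correction. LUCAT1 was at -0.74 and passed only the adjusted p, and IRF1-AS1, antisense to IRF1 in libraries whose counting strand is not given in the sources used here, was at 0.82 and did not pass. By the lists' counts and medians alone the lists cannot be said to differ from each other.

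**Figure D4:**
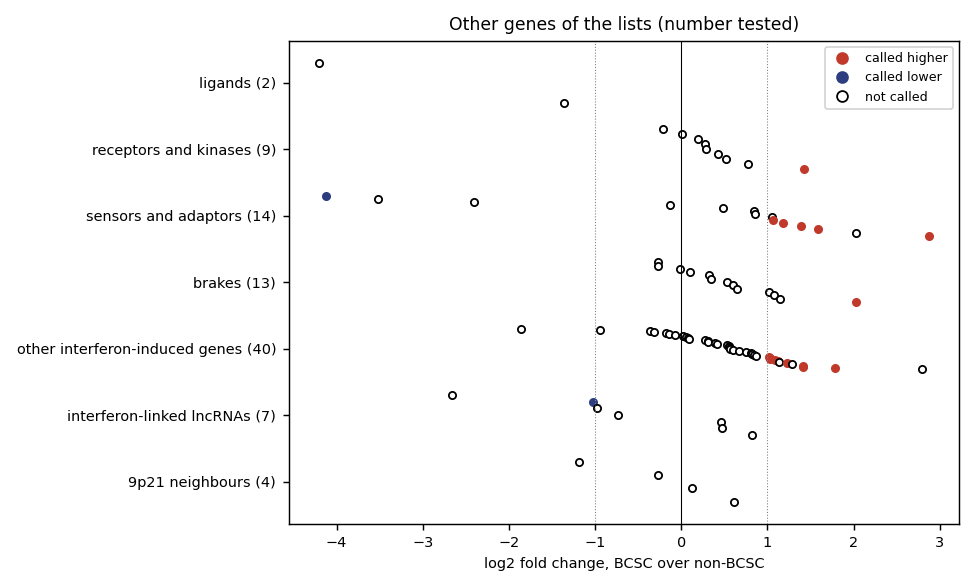
Log2 fold change of BCSC over non-BCSC for the 89 genes tested in 7 lists with the number tested in brackets; red points were called higher, blue points lower, open points were not called, and dotted lines mark a fold of 2. Both ligands lie to the left of 0, and 8 of the 9 receptors and kinases lie to the right of 0, TYK2 past the dotted line.

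Markers of other cells did not rise with the interferon genes. The 9 blood cell markers summed to 0.887 to 2.06 CPM in BCSC and to 16.6 to 30.3 CPM in non-BCSC. PTPRC, which marks all white blood cells, had 4, 6 and 19 counts against 160, 256 and 216. The 4 markers of plasmacytoid dendritic cells, which are strong makers of interferon, summed to 0 to 0.148 CPM against 0 to 3.45 CPM. Fibroblast markers summed to 34.6 to 48.6 CPM against 70.6 to 90.3 CPM, and endothelial markers to 18.5 to 33.8 CPM against 46.8 to 88.2 CPM. The olfactory receptor sums were also lower in BCSC, at 41.2 to 153 CPM against 544 to 1166 CPM. Called lower were 2 of 2 blood, 2 of 5 fibroblast and 1 of 2 endothelial markers tested, beside 11.3% of all genes. With the background removed these were 1 of 1, 1 of 4 and 1 of 1, beside 6.57%. What that low-level signal adds to the marker sums was not tested beyond these values.

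The counts of single transcripts gave a less steady picture than the gene sums. Of the 684 transcripts of the members, 324 had a count and 111, from 40 genes, passed the filter. By edgeR 1 was called higher, beside 0.597% of all transcripts, and 0 lower, beside 0.187%. On unadjusted p-values with the same fold, 17 were higher, beside 7.85% of all transcripts, and 5 lower, beside 7.99%. DESeq2 called 15 higher, beside 4% of all transcripts, and 4 lower, beside 3.58%. The called transcript, DDX60-201, had 493, 587 and 420 counts in BCSC and 0 in every non-BCSC library, which is at least 118-fold higher by the mean floor of 3 counts per library (edgeR adjusted p = 0.0462). The sum over DDX60 overlapped between the groups, so this difference lay in how the gene's counts were divided. The call was lost in all 6 fits that left out a library.

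Such divisions varied inside groups as well. RIGI-202 held 2020, 1899 and 1869 counts in the BCSC libraries against 0, 0 and 308, while RIGI-204 held 31, 18 and 21 against 402, 522 and 78. RSAD2-201 held 1221, 1311 and 1250 counts in the BCSC libraries against 0, 307 and 0 in the others, where RSAD2-209 held 374, 17 and 446. IFIT1-201 held 876, 899 and 84 counts in the BCSC libraries against 327, 0 and 186, with most of the missing counts in IFIT1-202, so that libraries of the same group were assigned to different transcripts. ISG15-203 held all ISG15 counts in BCSC and 0 in non-BCSC, where ISG15-202 held the 11 and 10 counts. RIGI-202, RSAD2-201 and ISG15-203 separated the groups as single transcripts, IFIT1-201 did not, and none of these 4 transcripts passed the adjusted p in edgeR.

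**Figure D5:**
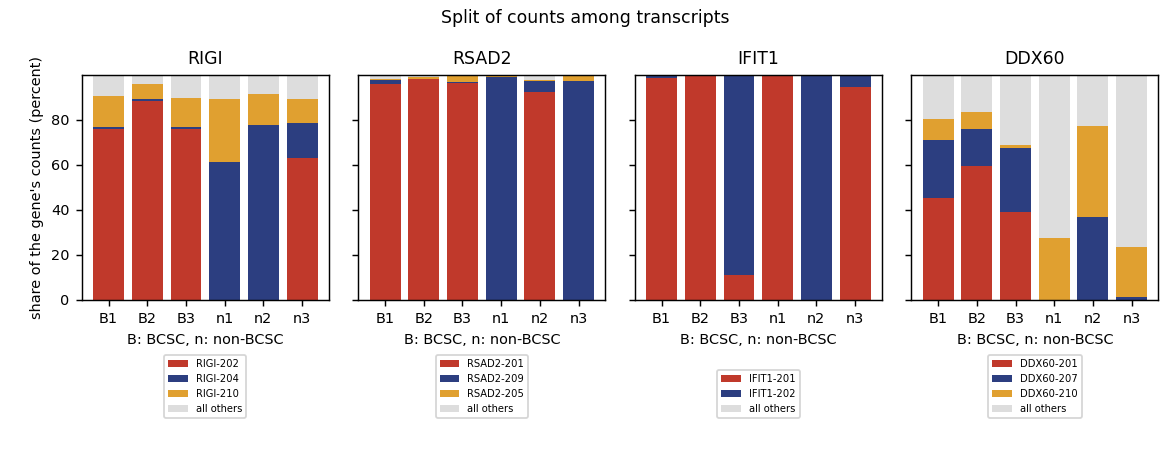
Share of each gene's counts, in percent, given to its most abundant transcripts in the 3 BCSC libraries (B1 to B3) and the 3 non-BCSC libraries (n1 to n3) for RIGI, RSAD2, IFIT1 and DDX60; grey is all other transcripts. In RSAD2 and IFIT1 nearly all counts switch between a pair of transcripts from library to library, also inside a group.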

How the data were processed

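Total RNA of 3 BCSC and 3 non-BCSC libraries was reverse transcribed with random primers and a strand-marking dUTP step, per the labels. The authors deposited estimated counts per transcript (whole numbers). The processing notes name HISAT2, featureCounts and DESeq2 with build hg38, while the methods of the study name hg19, and the step that divided reads among transcripts is not given in the sources used here. Transcript IDs were matched without version to GENCODE v44 on GRCh37, where 98.9% matched. The deposited counts carry no coordinates, and the only coordinates given are those of the promoters, on GRCh38.p14. Expression was compared with edgeR 4.0.16 (R 4.3.3; TMM, filterByExpr, robust quasi-likelihood fit, group only) over 20442 genes and, separately, over all transcripts. SE is that of the log2 fold change. Alternatives were DESeq2 1.42.0, RLE size factors, each library left out, the replicate number as a block, no minimum fold, no filter or a floor of 10 counts in each library, a loess correction (span 0.3) for GC content and length, and removal of a per-kilobase olfactory receptor background. The scripts were tested on simulated data. Replicates differed beyond sampling noise (chi-square per degree of freedom 15.2 to 42.1), so each was counted.

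Members called, and the 10 with the highest CPM, are given in every library. Up to 8 further members, with regulators preceding the smallest p, and from each pathway list the called genes and the 3 with the highest CPM, could be named; further members are named by their groups' overlap or fold after their values were seen. The members and lists were chosen with earlier results of these data known.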

Additional observations from a re-analysis of the deposited data

How the results depend on the processing

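In edgeR, 14 to 17 members were called higher and 0 to 0 lower when each library was left out. The members called lower were 1 with the GC and length correction and 1 with at least 10 counts in every library, a filter that left 36 members tested and 11 called higher, against 16. ISG15 and IFI6, each at 0 counts in non-BCSC replicate 3, were among the members it did not test. Among transcripts of the members, DESeq2 called 15 higher and 4 lower, the filter of 10 counts 3 and 1, and leaving out a library 0 to 0 higher. For the 7 gene lists DESeq2 called 10 lower, the GC and length correction 33 higher, background removal 10 higher, no minimum fold 30 higher, and leaving out a library 8 to 16 higher and 0 to 5 lower; 8 higher and 0 lower were left without BCSC replicate 1, 9 and 1 without BCSC replicate 2, 5 lower without BCSC replicate 3, and 1 lower without non-BCSC replicate 3. The cause was not tested. The shares of all genes called by DESeq2, the GC and length correction, background removal and no minimum fold stand above. No such share was computed for the fits that left out a library, the replicate block or the filter of 10 counts. Their counts therefore cannot be set against all genes. The fits that left out a library tested 22473 to 23992 genes, and the filter of 10 counts 13216.

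Signs turned in genes that were not called in the main fit. With the GC and length correction IFITM1 was at -0.84, BST2 at -0.49, EPSTI1 at 0.67, TRIM22 at 0.74 and XAF1 at 0.056. With the background removed DDX60 was at -0.10 and XAF1 at 0.63. DDX60 was at -0.029 with RLE size factors and -0.089 with the filter of 10 counts, and EPSTI1 at 0.063 without a filter. When each library was left out, the log2 fold change ran from -0.046 to 0.21 in DDX60, from -0.30 to 0.11 in CMPK2, from -0.11 to 0.47 in IFITM1, from -0.19 to 0.16 in EPSTI1, from -0.19 to 0.070 in TRIM22 and from -0.59 to 1.04 in XAF1.

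With the replicate number as a block, 17 members were called higher and 0 lower, 0 transcripts were called higher, 20 genes of the lists higher and 3 lower, and EPSTI1 was at 0.0093. The labels do not say what a number shares, and the deviations of same-numbered libraries correlated at 0.222, 0.030 and 0.248. BCSC replicate 2 correlated best with non-BCSC replicate 1 (0.043), so the numbers were not taken as pairs.

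Depth limits the members with few counts, such as XAF1 and the non-BCSC values of ISG15, IFI6 and IFI27.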
